A study of Saccharomyces cerevisiae with 6 samples.

Results

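The lysine biosynthesis genes of budding yeast comprise 9 genes here, LYS1, LYS2, LYS4, LYS5, LYS9, LYS12, LYS14, LYS20 and LYS21. They were taken by gene symbol from the platform annotation, out of 5379 named genes on the array, and each was represented by 1 spot. Saccharomyces cerevisiae strain S288C, a laboratory strain of mating type alpha, was grown in rich glucose medium (YPD) with shaking at 25 °C. In the methanol cultures, 5% methanol was present for 2 h from an optical density of 1, and the untreated cultures were grown on from the same density for 2 h without any addition. RNA of a methanol culture, labelled with Cy5, and of an untreated culture, labelled with Cy3, was hybridised together on each of 3 arrays from independent biological samples, and both a high-power and a low-power laser scan were taken of every array.

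Fungi make lysine from 2-oxoglutarate and acetyl-CoA by way of alpha-aminoadipate, a route unlike the bacterial and plant route through diaminopimelate. The first part runs from homocitrate to 2-oxoadipate, partly in mitochondria. After a transamination, aminoadipate is reduced to its semialdehyde, joined to glutamate as saccharopine, and split to lysine. The pathway is controlled by feedback of lysine on homocitrate synthase, by the activator Lys14, which responds to the aminoadipate semialdehyde, and by Gcn4, the general activator of amino acid synthesis genes.

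Values are log2 ratios of methanol over untreated, centred on the median gene of each array, so a value of −1 is a transcript at 0.5 times its untreated level relative to the median gene. Log base and direction were not stated with the values. Base 2 was assumed, and methanol over untreated is the likely direction because the methanol RNA was in the Cy5 channel. Were the ratios inverted, all rises below would be falls. The dyes were not swapped, so methanol and a gene-specific dye effect cannot be told apart. A ratio holds no level of its own, so the strain label could not be checked against markers. In a bulk culture, fewer cells with a transcript and less of it per cell cannot be told apart either. A gene was called at a limma Benjamini-Hochberg adjusted p under 0.05 over 4336 genes with a value on all 3 arrays. Means are given ± SD over n = 3 arrays unless stated.

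Most enzyme genes of the pathway were lower in methanol, and the gene of the last step was not. Of the 9 genes, 8 could be tested. LYS20, LYS21, LYS4, LYS12 and LYS2 fell to between 0.514 and 0.587 times the untreated level. LYS9, which had no value on replicate 2 and so was not tested, showed the lowest ratios of the pathway on the other arrays. LYS1 did not pass the test and averaged 0.01 ± 0.14. Outside the enzymatic steps, LYS5 rose and the activator gene LYS14 did not pass the test. The tested genes therefore counted 5 lower, 1 higher and 2 not called, with a median log2 ratio of −0.77. Among all tested genes, 50.3% were called, 24.2% lower and 26.0% higher, and the median was −0.01. These calls rest on limma's pooling of the spread over genes: with each gene's own SD alone, LYS4 was called (adjusted p = 0.0449) and the other members were not (adjusted p of the falls from 0.0565 to 0.138). Calls of other genes below used the same pooling.

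**Figure D1:**
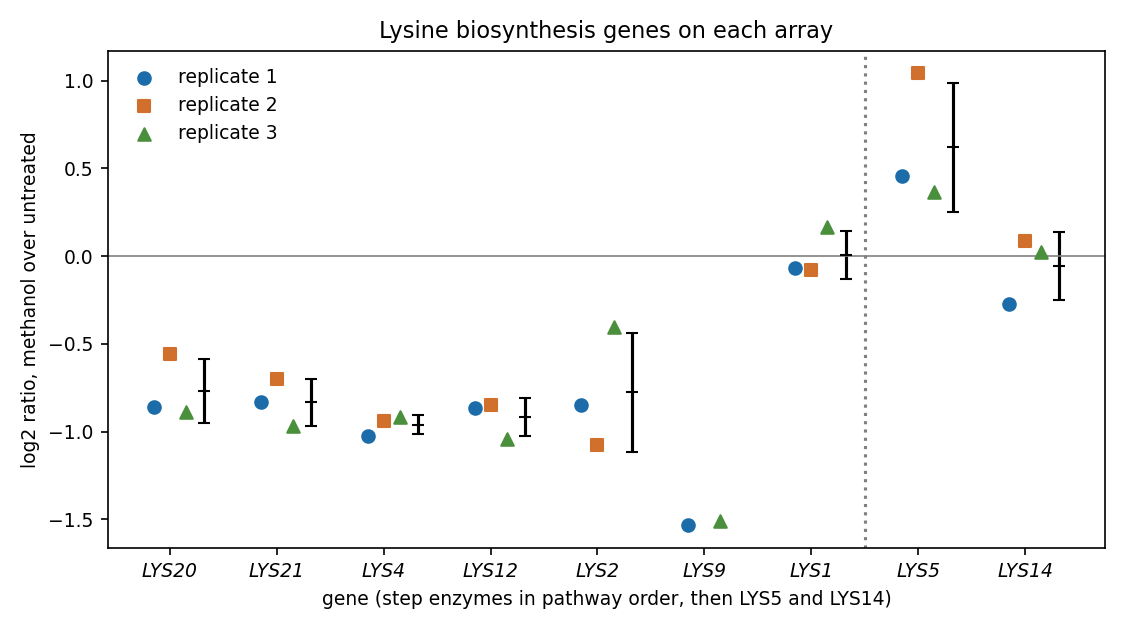
Centred log2 ratio of methanol over untreated (vertical axis) for each of the 9 genes, with enzymes in pathway order left of the dotted line. Symbols are the 3 arrays and black bars the mean ± SD; LYS9 has values on replicates 1 and 3 only. The 5 genes from LYS20 to LYS2 lie below 0 on every array, whereas LYS1 and LYS14 scatter around 0 and LYS5 lies above it.

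LYS20 (YDL182W) and LYS21 (YDL131W) encode the homocitrate synthase isoenzymes, which catalyse the first and committed step. LYS20 stood at −0.86, −0.56 and −0.89 on replicates 1, 2 and 3, and LYS21 at −0.83, −0.70 and −0.97. Both were below 0 on every array, and for both the weakest value was that of replicate 2. LYS20 fell by 0.77 ± 0.18 (limma adjusted p = 0.00270) and LYS21 fell by 0.83 ± 0.13 (limma adjusted p = 0.00160). Within arrays, LYS21 minus LYS20 was 0.03, −0.14 and −0.08, a mean of −0.06 ± 0.09, so the isoenzyme genes did not differ beyond that spread. They are paralogs of similar sequence and may share hybridisation signal, which was not tested.

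The next steps lie in mitochondria. LYS4 (YDR234W) encodes homoaconitase, an iron-sulphur enzyme, and stood at −1.02, −0.94 and −0.92 on replicates 1, 2 and 3. Among the tested members it was the most even between arrays. Its mean of −0.96 ± 0.06 (limma adjusted p = 0.000736) was the lowest among the tested members, and only 4.80% of all tested genes had a smaller SD. LYS12 (YIL094C), the gene of homoisocitrate dehydrogenase, stood at −0.86, −0.85 and −1.04. It fell by 0.92 ± 0.11 (limma adjusted p = 0.00102). LYS12 minus LYS4 averaged 0.04 ± 0.15, less than its spread.

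LYS2 (YBR115C) encodes the large aminoadipate reductase, which reduces aminoadipate to the semialdehyde. Its values were −0.85, −1.07 and −0.40, so all arrays lay below 0 while replicate 3 lay well above the others. The mean was −0.78 ± 0.34 (limma adjusted p = 0.00551), and 77.8% of tested genes had a smaller SD. Both scans of replicate 3 gave the weaker value, −0.48 at high and −0.38 at low power before centring. Without replicate 1 the value was −0.74 and the call was lost (limma adjusted p = 0.0603).

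LYS9, the gene of the saccharopine dehydrogenase that forms saccharopine from the semialdehyde and glutamate, had centred ratios of −1.53 on replicate 1 and −1.51 on replicate 3. On replicate 2 both scans were without a value. Its mean over the 2 arrays was −1.52, or 0.349 times the untreated level. Of the 5147 genes valued on both of these arrays, 1.09% lay lower. The spot had 4 deposited values before centring. They were −1.59 at high and −1.57 at low power on replicate 1, and −1.53 at high and −1.54 at low power on replicate 3. When genes with a value on at least 2 arrays were admitted to the fit, LYS9 was called lower (limma adjusted p = 0.00146), as were 21.5% of the genes in that fit.

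LYS1 (YIR034C) encodes the saccharopine dehydrogenase of the final step, which releases lysine. It stood at −0.07, −0.08 and 0.17 on replicates 1, 2 and 3, near the median gene of each array. It was not called (limma adjusted p = 0.966), and the 95% interval of its log2 ratio ran from −0.29 to 0.30, or 0.818 to 1.23 times the untreated level. The means of the 5 called enzyme genes lie outside this interval. As a description, since these genes are grouped by their calls, LYS1 minus the mean of the 5 was 0.82, 0.74 and 1.01 on replicates 1, 2 and 3. Against LYS9, the gene of the preceding step, LYS1 was higher by 1.46 on replicate 1 and by 1.68 on replicate 3.

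LYS5 (YGL154C) encodes the phosphopantetheinyl transferase that attaches the cofactor Lys2 needs to work. It stood at 0.46, 1.04 and 0.36, all above 0, with replicate 2 far above the others. LYS5 rose by 0.62 ± 0.37 (limma adjusted p = 0.0156), and 81.0% of tested genes had a smaller SD. The value on replicate 2 came from the high-power scan alone. Without replicate 2 the log2 ratio was 0.41, and without replicate 1 it was 0.70 and no longer called (limma adjusted p = 0.0677). LYS5 minus its target gene LYS2 was 1.31, 2.12 and 0.77 on replicates 1, 2 and 3, so enzyme and activating enzyme genes stood apart on every array.

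LYS14 (YDR034C) encodes the pathway's transcriptional activator. Its values were −0.27, 0.09 and 0.02, on both sides of 0. The mean of −0.05 ± 0.19 was not called (limma adjusted p = 0.751), with a 95% interval from −0.37 to 0.26. It had 4 of 6 possible scan values, with low power contributing on replicate 3 only.

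In order of ratio, the tested genes ran LYS4, LYS12, LYS21, LYS2, LYS20, LYS14, LYS1 and LYS5 from lowest to highest. Neighbours from LYS4 to LYS20 differed by at most 0.09 on average, and only LYS21 and LYS12 differed by more than the SD of their difference (0.09 ± 0.06). The step from LYS20 to LYS14 was the widest of these, as LYS14 minus LYS20 averaged 0.71 ± 0.17. LYS1 minus LYS14 averaged 0.06 ± 0.20, within its spread, and LYS5 minus LYS1 averaged 0.61 ± 0.47. The array means over the 8 genes were −0.54, −0.38 and −0.46 on replicates 1, 2 and 3. Of all tested non-member genes, those whose 3 array values came closest to these means were ARB1, AIF1, ARO4, ATP4 and ANP1, at root mean square distances from 0.03 to 0.04. Of these ARO4, which encodes an enzyme of the shikimate pathway, is also a gene of amino acid synthesis. The mean ratios of these genes lie between LYS20 (−0.77) and LYS14 (−0.05), where no tested member lies. They are thus near the members' average rather than near any one member.

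The 2 laser powers gave alike values for these spots. LYS20, LYS21, LYS12, LYS2 and LYS1 had a value in all 6 scans. For them high minus low power, less the difference of the scans' medians, averaged between −0.005 and 0.11, and none passed the limma test (adjusted p from 0.527 to 0.985), with 0 of 5 at an unadjusted p under 0.05. Of all 1595 genes with such differences, 2 were called, or 0.125%. The largest single difference among all members was 0.25, reached by LYS2 on replicate 1 and by LYS1 on replicate 2. Low-power scans alone allowed 5 of the genes to be tested, of which 4 were called lower and LYS1 stood at −0.05. Of all genes in that fit, 28.4% were called lower.

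**Figure D2:**
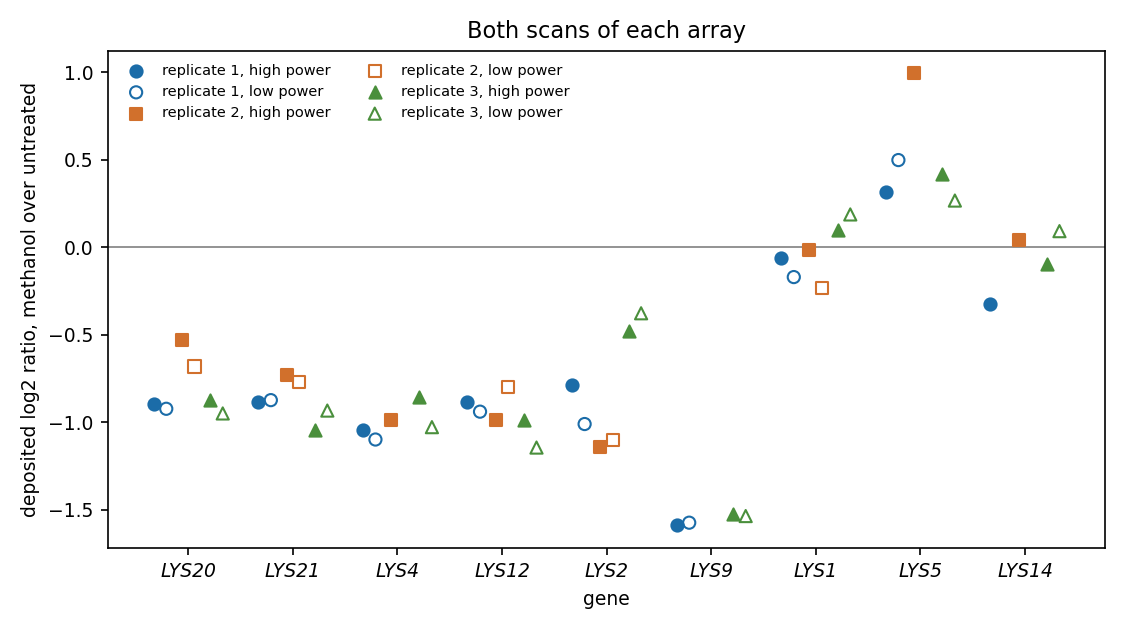
Deposited log2 ratio before centring (vertical axis) for each gene, with filled symbols for high-power and open symbols for low-power scans of replicates 1, 2 and 3. Scans of an array lie close together; LYS9 lacks both scans of replicate 2, LYS4, LYS5 and LYS14 lack its low-power scan, and LYS14 also lacks that of replicate 1.

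Genes that serve the same route outside the LYS set moved in both directions. Of 6 such genes measured, 2 were higher and 2 lower, beside 26.0% higher and 24.2% lower over all tested genes. With each gene's own SD alone, 0 of the 6 were called. ODC1 and ODC2 encode the mitochondrial carriers of 2-oxodicarboxylates, which export 2-oxoadipate. ODC1 stood at 0.96, 1.57 and 1.33 on replicates 1, 2 and 3 and rose by 1.29 ± 0.31 (limma adjusted p = 0.000547). ODC2 stood at −0.53, −0.18 and −0.72 and fell by 0.48 ± 0.28 (limma adjusted p = 0.0284). The paralogous carrier genes thus lay on opposite sides of 0 on every array, although the call for ODC2 was lost without replicate 1 (−0.45, limma adjusted p = 0.154) or without replicate 3 (−0.35, limma adjusted p = 0.179).

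ARO8, the gene of an aminotransferase that forms aminoadipate, was uneven, at −0.46, 0.53 and −0.29, and was not called (limma adjusted p = 0.784). MKS1, also known as LYS80 and a negative regulator of lysine genes, fell by 0.55 ± 0.43 (limma adjusted p = 0.0341). That call was lost without replicate 1 (−0.53, limma adjusted p = 0.163) or without replicate 2 (−0.34, limma adjusted p = 0.133). SOD1, the copper-zinc superoxide dismutase gene whose loss makes yeast require lysine in air, rose by 1.36 ± 0.18 (limma adjusted p = 0.000239). CCS1, also named LYS7 and the copper chaperone of that enzyme, averaged −0.23 ± 0.23 and did not pass.

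In the use and transport of lysine, KRS1, the cytosolic lysyl-tRNA synthetase gene, stood at −1.45, −2.0 and −1.51 and fell by 1.65 ± 0.30 (limma adjusted p = 0.000180). MSK1, its mitochondrial counterpart, averaged 0.11 ± 0.06 and did not pass. Among 9 tested genes of basic amino acid transport, 4 were higher and 0 lower by limma, with a median of 0.19, and 1 was lower at an unadjusted p under 0.05. Over all tested genes, 26.0% were called higher and 24.2% lower. With each gene's own SD alone, 0 genes of the synthetase and transport lists were called. The general amino acid permease gene GAP1 rose by 1.46 ± 0.28 and ALP1, a basic amino acid permease gene, by 1.15 ± 0.73. The ALP1 values were 1.01, 1.93 and 0.50. Its ratio was 0.76 without replicate 2, and its call was lost without replicate 1 (1.22, limma adjusted p = 0.0551).

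LYP1, the gene of the specific lysine permease, stood at −0.10, 0.71 and −0.05 and was not called (limma adjusted p = 0.421). Its arginine counterpart CAN1 averaged −0.08 ± 0.08. VBA2 (0.52 ± 0.44) and VBA3 (0.55 ± 0.52), genes of vacuolar basic amino acid import, passed with limma adjusted p of 0.0430 and 0.0490. VBA2 lost its call whichever replicate was left out, with values from 0.27 to 0.68, and VBA3 lost it without replicate 1 (0.64) or without replicate 3 (0.26). VBA1 (−0.05), VSB1 (0.12) and YPQ1 (−0.37), which also act at the vacuole, did not pass. RTC2, a relative of YPQ1, had values on replicates 1 and 3 only, 1.09 and 1.48.

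**Figure D3:**
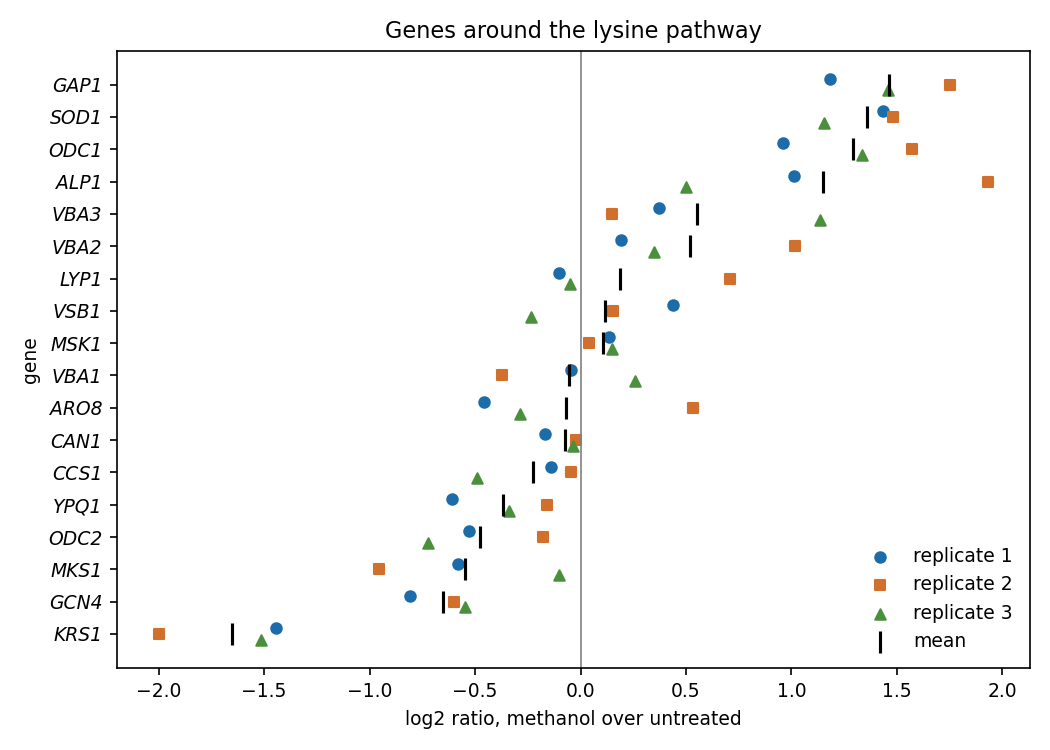
Centred log2 ratio (horizontal axis) of lysine pathway partners, transport genes, lysyl-tRNA synthetase genes and GCN4, for replicates 1, 2 and 3, with vertical ticks at the mean. GAP1, SOD1, ODC1 and ALP1 lie right of 0 and KRS1 and GCN4 left of it on every array, while LYP1 and ARO8 fall on both sides.

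Of 18 tested genes that supply 2-oxoglutarate, glutamate and acetyl-CoA, 5 were higher and 2 lower, with a median of 0.22. Over all tested genes, 26.0% were higher and 24.2% lower, and no difference of this list from the LYS enzymes was tested. GDH1, the main glutamate dehydrogenase gene of growth on glucose, had the largest change (−2.02 ± 0.11). IDP2, an isocitrate dehydrogenase gene (0.82 ± 0.37), and PDA1, a subunit gene of pyruvate dehydrogenase (0.78 ± 0.46), rose. PDA1 was at 0.52 without replicate 2. The list had 3 genes higher and 1 lower without replicate 1 as well as without replicate 3. Over all genes, 672 of 4393 were higher and 575 lower without replicate 1. Without replicate 3, 867 of 4340 were higher and 737 lower. With each gene's own SD alone, the list had 0 genes higher and 1 lower.

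GCN4 stood at −0.81, −0.60 and −0.55 on replicates 1, 2 and 3 and fell by 0.65 ± 0.14 (limma adjusted p = 0.00453). Its call was lost without replicate 1 (−0.57, limma adjusted p = 0.0577). The wider list of regulators of amino acid synthesis had 14 tested genes, of which 7 were lower and 1 higher, with a median of −0.41. The shares over all tested genes were 24.2% lower and 26.0% higher. With each gene's own SD alone, 0 of the 14 were called. The genes with the largest change in the regulator list were GCD6 (−1.38 ± 0.47), GCD1 (−1.32 ± 0.28) and GCN20 (−1.21 ± 0.41). GCD6 and GCD1 encode subunits of the initiation factor eIF2B, which governs GCN4 translation, and GCN20 is needed to activate the kinase Gcn2. These genes also belong to the translation machinery.

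Other amino acid pathways were set beside lysine for comparison. Among all tested genes, 24.2% were called lower and 26.0% higher. Where 5 of 8 lysine genes were lower, histidine synthesis had 5 of 6 lower (median −0.78) and aromatic synthesis 9 of 13 lower (median −0.67). Neither had a gene called higher by limma or one higher at an unadjusted p under 0.05 (0 in each). With each gene's own SD alone, 2 histidine and 3 aromatic genes were called lower. The lysine count includes LYS5 and LYS14, which are not step enzymes. The lysine step enzymes alone had 5 of 6 lower (median −0.80). The aromatic list includes ARO9 (−1.01 ± 0.06, called lower) and ARO8, which was also counted among the genes that serve the lysine route. Branched-chain synthesis had 1 lower and 2 higher of 12 (median −0.05). Arginine synthesis had 0 called of 5 by limma, 0 at an unadjusted p under 0.05 and 0 with each gene's own SD, with ratios from −0.26 to 0.15. Without replicate 1, histidine synthesis had 3 genes called lower and aromatic synthesis had 6, while 575 of all 4393 genes in that fit were called lower. These are counts and medians of short lists, and no difference between pathways was tested.

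In histidine and aromatic synthesis the largest falls were beyond those of the tested lysine genes, which reached −0.96. LYS9, not among the tested genes, averaged −1.52 over replicates 1 and 3. Of the genes named next, only HIS1 and ARO7 were lower than LYS9, and HIS4 fell less than LYS4. HIS1 (−2.07 ± 0.09), HIS6 (−1.38 ± 0.07) and HIS4 (−0.94 ± 0.13) led histidine synthesis, and ARO7 (−1.87 ± 0.21), TRP3 (−1.30 ± 0.11) and TYR1 (−1.11 ± 0.17) led aromatic synthesis. In the branched-chain list the transaminase gene BAT1 stood at −0.82 ± 0.44, LEU2 at 0.78 ± 0.44 and LEU4 at 0.70 ± 0.14. LEU4 encodes isopropylmalate synthase and LEU2 isopropylmalate dehydrogenase, enzymes of a chain-extending route that has the same chemistry as the first steps of lysine synthesis. LEU1, the isopropylmalate isomerase gene and counterpart of LYS4, averaged −0.34 ± 0.15 without a call (limma adjusted p = 0.0615). LEU9, the gene of the other isopropylmalate synthase, stood at −0.55, 0.25 and −0.10 and was not called (limma adjusted p = 0.547). LEU4 was called in all 3 leave-one-out fits and LEU2 in all but that without replicate 1 (0.79, limma adjusted p = 0.0685). BAT1 kept its call only without replicate 2.

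**Figure D4:**
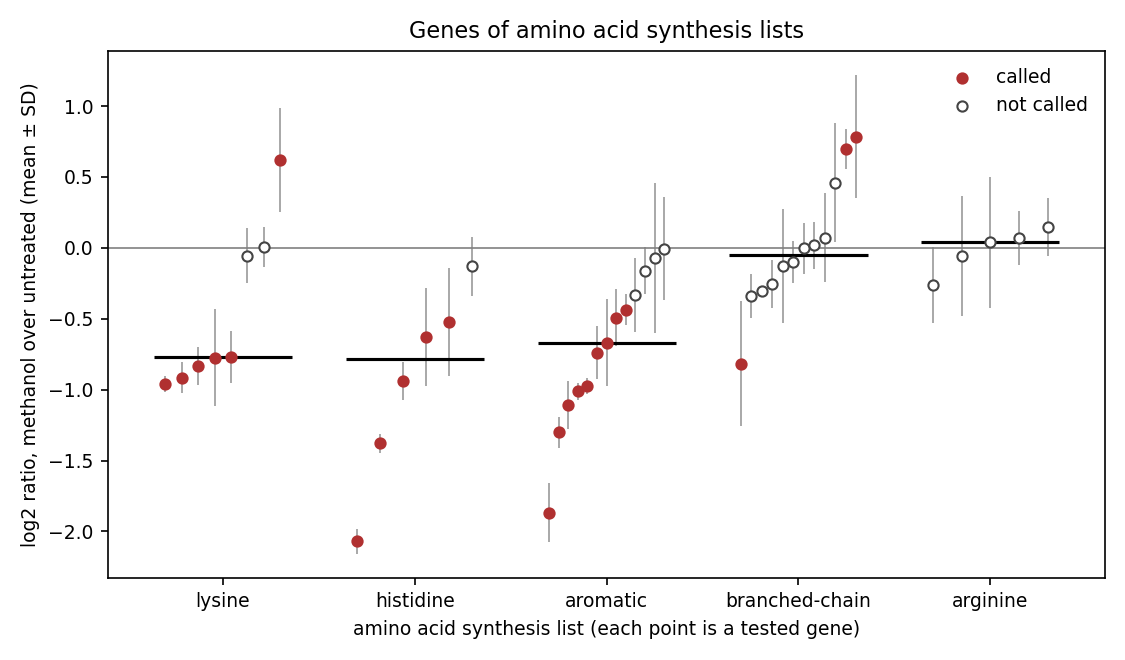
Mean log2 ratio ± SD over 3 arrays (vertical axis) of every tested gene in each of 5 amino acid synthesis lists; filled points are called genes and horizontal bars list medians. Lysine, histidine and aromatic medians lie between −0.78 and −0.67, and branched-chain and arginine medians near 0.

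LYS4 was also set among other genes of iron-sulphur proteins. Of 14 tested, 5 were lower including LYS4 and 1 higher, with a median of −0.32, beside 24.2% lower and 26.0% higher over all tested genes. The largest changes were those of ELP3 (−1.11 ± 0.21), RLI1 (−1.07 ± 0.16) and TYW1 (−1.06 ± 0.19), which act in tRNA modification and ribosome recycling. ACO1, the aconitase gene of the citric acid cycle, averaged 0.32 and did not pass (limma adjusted p = 0.159). The genes that assemble iron-sulphur clusters had 7 lower and 1 higher of 19, with a median of −0.17, beside the same shares over all tested genes. MGE1 (−1.13 ± 0.27), NFU1 (−1.11 ± 0.33) and CIA2 (−0.85 ± 0.06) changed most. Without replicate 1, and likewise without replicate 3, 4 of the assembly genes were lower. Over all genes, 575 of 4393 were lower without replicate 1 and 737 of 4340 without replicate 3. With each gene's own SD alone, 2 iron-sulphur protein genes and 1 assembly gene were called lower.

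Of 18 genes next to the members on the chromosomes 14 were tested, with 4 higher and 3 lower, shares close to the 26.0% and 24.2% over all tested genes. Of the 3 called lower, CDC53 (−0.54 ± 0.17) lies beside LYS21, RSM25 (−0.52 ± 0.44) beside LYS12 and NRE1 (−0.48 ± 0.36) beside LYS1. Of those called higher, TKL2 (2.54 ± 0.47), a minor transketolase gene, lies beside LYS2, INH1 (0.49 ± 0.21) and MRX19 (0.53 ± 0.11) beside LYS20 and STF1 (0.99 ± 0.17) beside LYS21. TKL2 and STF1 were called in each fit that left out a replicate, which the other 5 were not. The counts were 2 higher and 0 lower by limma without replicate 1 (1 lower at an unadjusted p under 0.05), 5 and 2 without replicate 2, and 3 and 1 without replicate 3. Over all genes, higher and lower calls were 672 and 575 of 4393 without replicate 1. They were 1218 and 1120 of 5147 without replicate 2, and 867 and 737 of 4340 without replicate 3.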

How the data were processed

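Deposited values were log ratios, 1 column per scan, with no log base stated, and were taken as log2. Per the labels' protocols, the authors restricted a LOWESS normalization to spots flagged 0; their GeneSpring merge of both scans was not used here. The array held 6912 spots, of which 5446 had 1 gene in the platform annotation, and all of these matched the R64 gene table, used for names and gene order only. No coordinates are given, since no build came with the values.

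The available scans of a spot were averaged, then the spots of a gene, and the median gene of every array was set to 0 (−0.05, −0.05 and −0.02 before centring). Of the 9 members, 9, 8 and 9 had a value on replicates 1, 2 and 3. Across replicates 1 to 3, 4399 to 5339 genes had a value. Genes valued on all 3 arrays were fitted with limma 3.58.1 in R 4.3.3 (intercept against 0, empirical Bayes) and adjusted by Benjamini-Hochberg over all 4336. The fitting step was run on simulated data with known changes as a check of the code, which is no support for the calls reported. The 3 arrays limit the precision; depth does not apply, and intensities were not used.

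The members and lists were chosen with earlier results of these data known. Named are all members, partner, transport and synthetase genes, GCN4, the 3 called genes with the largest change in each other list, and the 5 genes nearest the members' mean profile; LEU1, LEU9, ACO1 and the neighbours were added after their values were seen. In the lists, 2 names were synonyms of other entries and counted once. The alternatives tried were the scan power, centring, missing-value filters, array weights, the variance model and each replicate left out.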

Additional observations from a re-analysis of the deposited data

How the results depend on the processing

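Both Benjamini-Hochberg counts of members kept their values of 5 lower and 1 higher with high-power scans alone, without centring, with array weights, with robust empirical Bayes and without replicate 3. With values on at least 2 arrays and without replicate 2 they were 6 and 1, as LYS9 was then tested. The number of members higher was 0 with low-power scans alone, with values in all 6 scans, with each gene's own SD and without replicate 1, and it ran from 0 to 1 over the fits that left out a replicate. In the first 2 of these LYS5 and LYS4 were not tested, and 4 members were lower. Without replicate 1 the number lower was also 4, and it ran from 4 to 6 over the fits that left out a replicate. With each gene's own SD 1 member was lower. Over all genes, higher and lower calls numbered 431 and 485 with low-power scans alone, 428 and 517 with values in all 6 scans, where fewer genes are tested, and 139 and 93 with each gene's own SD. Leaving out a replicate gave 672 to 1218 higher and 575 to 1120 lower, with the fewest without replicate 1. The members' median lay between −0.87 and −0.72 throughout.

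Reversed signs were met only in genes near 0 that were not called. LYS1 stood at −0.053 with low-power scans alone and at −0.034 without centring. Over the fits that left out a replicate it ran from −0.073 (without replicate 3) to 0.049, and LYS14 from −0.126 to 0.055 (without replicate 1). LYS20, LYS21, LYS4 and LYS12 kept their calls in all 3 fits that left out a replicate; where a fit lost the calls of LYS2 or LYS5, the cause was not tested. Each ratio already pairs a methanol culture with an untreated one on the same array, so the test was paired in that sense. The series has a single group, so no further pairing was possible. Signal over background could not be computed, so how far dim spots limit LYS5 and LYS14, which have fewer scan values, was not tested. Nor was it tested for other named genes with 3 of 6 scan values, such as GAP1, ALP1, VBA3, ARO7, GCD6, ELP3 and TKL2.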
